A study of Oryza sativa with 11 samples.

Results

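Cytochrome P450 genes were examined in the root tips of 2 rice genotypes grown with and without salt. They were taken as every gene whose symbol or synonym in the RefSeq annotation of Oryza sativa Japonica Group (assembly ASM3414082v1) begins with CYP or OsCYP followed by a family number, a subfamily letter and a member number. The annotation named 39 such genes. Of these, 29 genes in 14 families had a probe set assigned to them alone and are described here, out of 17905 genes with a probe set of their own. The 29 genes were covered by 34 probe sets, and the brightest probe set stood for each gene. The other 10 genes (CYP90D2, CYP734A2, CYP90B2, CYP714B2, CYP701A19 as a gene of its own, CYP734A5, CYP714B1, CYP707A7, CYP78A11 and CYP90A3) were not analysed here for want of such a probe set. P450 genes that the annotation lists without a CYP name are missed by this rule.

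The samples were 3 arrays of salt-treated FL478, 3 arrays of control FL478, 3 arrays of salt-treated IR29 and 2 arrays of control IR29, all Affymetrix rice arrays of the last 2 cm of the root. FL478 is a salt-tolerant recombinant inbred line that shares parentage with IR29, and IR29 is salt-sensitive, so each genotype is a single line. The salt plants received NaCl together with CaCl2, raised over 3 days to an electrical conductivity of 7.4 dS/m (about 60 mM NaCl) and held for 5 days, against 1.1 dS/m in the control, and all plants were harvested 30 days after germination. The study's methods describe sand tanks, and the sample labels describe hydroponic culture.

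Cytochrome P450 enzymes are heme proteins, most of which, though not those of family CYP74, insert oxygen into small molecules with electrons delivered by a reductase. Plants use them to build and to break down hormones and to make defence compounds. In rice, CYP76M, CYP71Z and CYP99 enzymes oxidise the hydrocarbon skeletons of momilactones, phytocassanes and oryzalexins, labdane-related diterpenoids with antimicrobial or allelopathic activity, some of which are released from roots. Other families act on jasmonate precursors (CYP74), gibberellins (CYP701, CYP88 and CYP714), brassinosteroids (CYP85, CYP90, CYP724 and CYP734) and abscisic acid (CYP707). Several of the genes lie next to one another in the genome. In the annotation used, CYP76M5 and CYP76M8 were neighbours on chromosome 2, with CYP71Z6 and CYP71Z7 next to each other after 2 further coding genes and CYP76M6 after another 3. CYP99A3 and CYP99A2 lay on chromosome 4 with 3 coding genes between them. CYP74A3 and CYP74A4 were adjacent on chromosome 2, CYP714C1 and CYP714C2 on chromosome 12, and CYP701A9, CYP701A8, CYP701A19 and CYP701A6 followed one another on chromosome 6.

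The values are linear signal intensities on a common scale, with a median of 48.8 to 61.3 units per array, and signals under 32 units made up 36.6% to 41.9% of each array. Correlations were 0.963 to 0.978 within groups and 0.945 to 0.975 between them. Summed signals of 7 root genes, the silicon transporter Lsi1 and CASP1 of the endodermis among them, reached 5.70e+04 to 6.76e+04 units in salt FL478, 6.50e+04 to 6.72e+04 in control FL478, 6.01e+04 to 7.07e+04 in salt IR29 and 6.67e+04 to 7.34e+04 in control IR29. Lsi1, Lsi2 and IRT1 made up most of these sums. Lsi2 averaged 14224 units in salt and 17932 in control FL478, and 11235 in salt and 18140 in control IR29. Its salt arrays lay below its control arrays in both genotypes, without a call. Lsi1 and IRT1 overlapped between salt and control in both. Summed signals of 6 genes of dividing cells, the cyclins B and PCNA among them, reached 8781 to 11490 units in salt FL478, 7832 to 9505 in control FL478, 7957 to 11020 in salt IR29 and 9332 to 11780 in control IR29. Summed signals of 5 photosynthesis genes of green tissue were 468.6 to 585.3 units in salt FL478 and 907.3 to 1342 units in control FL478, without overlap, and 288.4 to 937 units in salt IR29 and 403.7 to 860.8 units in control IR29. PSAG and CAB2R carried most of the FL478 difference, and none of the 5 genes was called there. Of the small Rubisco subunit genes, RBCS1 averaged 7.85 units and RBCS-C 184.3 units. The log2 ratio of the 3' to the 5' probe sets of GAPDH, a measure of RNA integrity, was 0.77 ± 0.14 in salt FL478 and 0.58 ± 0.060 in control FL478 (SD, n = 3 each), and 0.88 ± 0.16 in salt IR29 (SD, n = 3) and 0.65 ± 0.0086 in control IR29 (SD, n = 2). Salt and control arrays did not overlap in this ratio. It was 0.65 to 0.92 in salt FL478 against 0.51 to 0.62 in control FL478. In IR29 it was 0.71 to 1.03 under salt against 0.65 to 0.66 in the control. A fit with this ratio as a covariate therefore cannot tell a salt response from a difference in the ratio. A search by symbol for the electron donors of P450 enzymes returned only PORA and PORB, names used for enzymes of chlorophyll synthesis, so no P450 reductase or cytochrome b5 was evaluated.

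Under salt, 1 P450 gene was called lower in FL478 and none in IR29. Changes are differences of mean log2(signal + 32), tested in limma with Benjamini-Hochberg adjustment over 57258 probe sets, and a gene is said to be called, or to have risen or fallen, at an adjusted p under 0.10. In FL478, the allene oxide synthase gene CYP74A3 fell and no P450 gene rose, against 0.121% of all probe sets called lower and 0.0489% called higher. In IR29, 0 of 29 P450 genes were called, with 0 at an unadjusted p under 0.05, against 0.00524% of all probe sets called and 6.18% at that unadjusted p. Below the level of calls, 8 of 29 P450 genes (27.6%) had an unadjusted p under 0.05 in FL478, against 8.97% of all probe sets, and 7 of these 8 were lower under salt. The median change was -0.35 over the P450 genes and 0.00 over all probe sets in FL478, and -0.02 and 0.00 in IR29. With the 8 diterpenoid genes set aside, the other 21 P450 genes had an FL478 median of 0.03, with 11 higher and 10 lower. Setting aside genes that were all lower raises the median in any case, so this does not show that they alone carry it. The 10 lower genes included CYP74A2 (-2.08), CYP701A8 (-2.07) and CYP74A3 (-1.54). The summed photosynthesis signal was also lower in salt FL478 (468.6 to 585.3 units, against 907.3 to 1342 in control FL478), and its part in the P450 differences was not tested. The offset of 32 shrinks changes of dim genes toward 0, and a low signal from fewer cells of a type cannot be told apart from less RNA per cell in whole root tips.

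All salt arrays lay below all control arrays for 8 of 29 P450 genes in FL478 (27.6%), against 6.95% of all probe sets. These were CYP99A2, CYP76M5, CYP76M6, CYP71Z7, CYP74A2, CYP74A3, CYP701A8 and CYP714D1. All salt arrays lay above all control arrays for 1 gene, CYP85A1, against 7.07% of all probe sets. In IR29 the arrays did not overlap for 5 of 29 P450 genes (17.2%), against 21.4% of all probe sets. CYP99A3 and CYP85A1 were the ones with the higher salt arrays, and CYP87A3, CYP88A5 and CYP90A4 the ones with the lower. The P450 genes were read from their brightest probe sets, 21 of 29 at 32 units or above on all 11 arrays. Their shares are thus set against a dimmer set of all probe sets, here and at an unadjusted p. CYP76M5, CYP71Z7 and CYP76M6 also lie in the same stretch of chromosome 2.

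**Figure D1:**
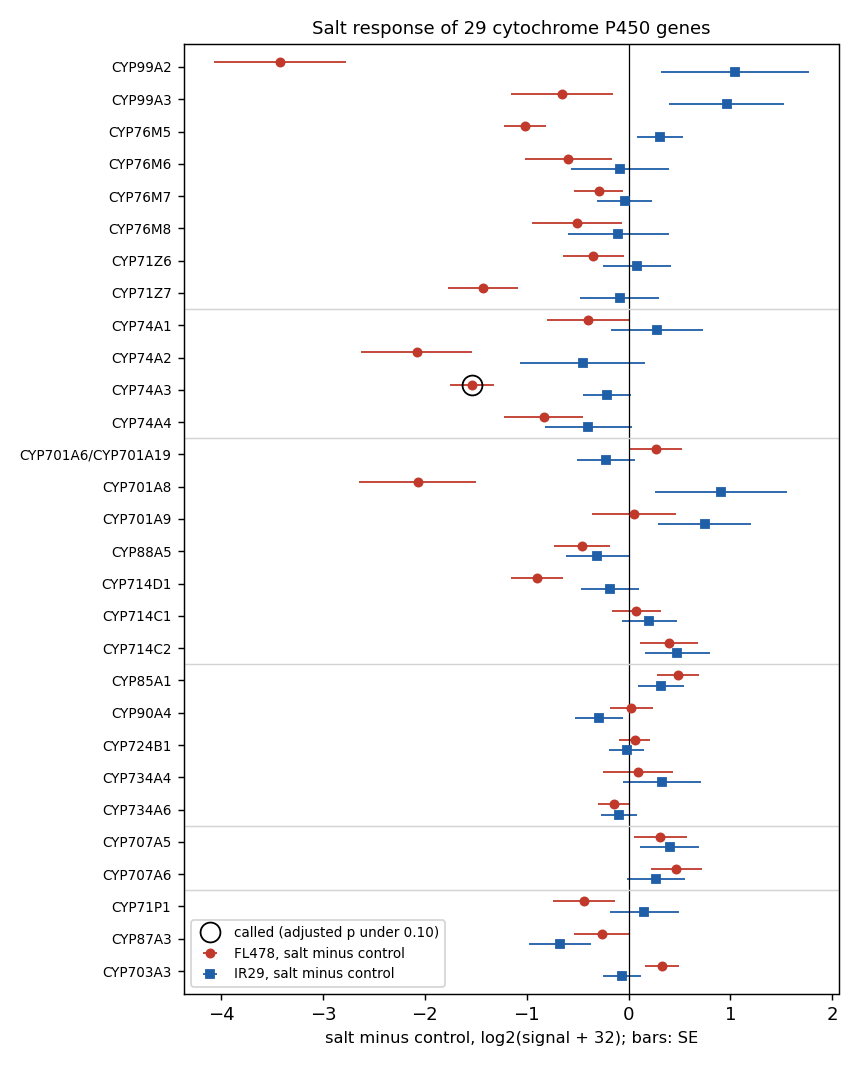
Salt response of the 29 P450 genes as the difference of mean log2(signal + 32) between salt and control (horizontal axis), for FL478 (red circles) and IR29 (blue squares), with bars for the standard error of the fit and grey lines between gene groups. The ring marks CYP74A3 in FL478 (-1.54), the 1 called change. The diterpenoid genes in the top block lie left of zero in FL478 and on both sides of it in IR29.

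The 8 diterpenoid genes were all lower under salt in FL478, by -0.29 to -3.42 on the log2 scale with a median of -0.62, but none was called. In IR29, 4 were higher and 4 lower, with a median of 0.02 and none called. The widest separation was that of CYP99A2, a gene of the momilactone cluster. CYP99A2 had 139.7, 42.3 and 243.3 units in salt FL478, against 3549, 1195 and 953.1 units in control FL478. In IR29 it had 191.7, 161.4 and 534 units under salt, against 57.8 and 188.8 units in the control. Control FL478 was thus high on every array and the other 3 groups lay below it, with salt and control overlapping in IR29. The change of CYP99A2 was -3.42 ± 0.65 (SE) in FL478, with an adjusted p of 0.134 in limma, and 1.04 ± 0.72 in IR29, with an adjusted p of 0.928. In FL478 its adjusted p ranged from 0.129 to 0.312 when each array was left out in turn, and it was 0.535 with the GAPDH ratio as a covariate, 0.256 with a floor of 32 and 0.243 with FL478 arrays only, against 0.0723 among probe sets above the median level and 0.0915 with an intensity trend and robust variance. The IR29 change of CYP99A2 was 0.56 without salt replicate 3 of IR29, 0.40 without its control replicate 1 and 1.69 without its control replicate 2.

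CYP99A3, which oxidises the momilactone precursor syn-pimaradiene, did not separate in FL478. It had 202.3, 252 and 770 units in salt FL478, against 755.3, 503.2 and 459.7 units in control FL478. In IR29 it had 411.9, 316.4 and 1034 units under salt, against 216.7 and 285.6 units in the control. One FL478 salt array exceeded the highest control array, while in IR29 all salt arrays exceeded both control arrays. Its change was -0.65 ± 0.50 in FL478 (adjusted p = 0.772, limma) and 0.96 ± 0.56 in IR29 (adjusted p = 0.896). Without salt replicate 3 of IR29, the array with the highest signal of this gene, the IR29 change was 0.48.

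CYP76M5, one of the CYP76M diterpene hydroxylases of chromosome 2, followed the pattern of CYP99A2. It had 33, 46.1 and 43.7 units in salt FL478, against 144.8, 108.5 and 96.1 units in control FL478. It had 27.5, 54.6 and 54.5 units in salt IR29, against 22.9 and 37.4 units in control IR29. Only control FL478 stood clear of the other groups, none of which exceeded 54.6 units. The change was -1.02 ± 0.20 in FL478 (adjusted p = 0.147, limma) and 0.31 ± 0.23 in IR29 (adjusted p = 0.942). Over the other settings and arrays left out, the FL478 change had the same sign in every fit, with an adjusted p from 0.118 to 0.570 apart from 1 fit that CYP76M5 entered only through its high control FL478 arrays.

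CYP71Z7, an oxidase of the phytocassane branch in the same stretch of chromosome 2, had 126.1, 116 and 93.9 units in salt FL478, against 589.9, 418.9 and 173.5 units in control FL478. It had 87.9, 107.4 and 73.7 units in salt IR29, against 78.7 and 116.9 units in control IR29. The FL478 groups did not overlap, and the IR29 salt and control arrays did. The change of CYP71Z7 was -1.43 ± 0.35 in FL478 (adjusted p = 0.220, limma) and -0.09 ± 0.39 in IR29 (adjusted p = 1.00).

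CYP76M6 had 64.8, 67.5 and 102.2 units in salt FL478, against 145.5, 111.9 and 140.8 units in control FL478, and 79.4, 74.6 and 16 units in salt IR29, against 125.8 and 17.1 units in control IR29. The FL478 groups were apart by a narrow margin, and its change there was -0.59 ± 0.43 (adjusted p = 0.752, limma). The second, dimmer probe set of CYP76M6 averaged 7.67 units in salt FL478 and 36.3 units in control FL478, without overlap. Its changes were -0.70 ± 0.34 in FL478 (adjusted p = 0.585) and 0.46 ± 0.37 in IR29 (adjusted p = 0.954). CYP76M8, which hydroxylates several diterpenes, had 246.7, 204.4 and 346.2 units in salt FL478, against 551.2, 362.8 and 277.8 units in control FL478. It had 56.5, 224.7 and 294 units in salt IR29, against 151.2 and 206.5 units in control IR29. The CYP76M8 groups overlapped in both genotypes, and its probe set is of a type that can bind transcripts of related genes. CYP76M7 of phytocassane synthesis was under 32 units on 10 of 11 arrays and CYP71Z6 on 9 of 11 arrays, so their levels were barely measured. The annotation places the gene it names CYP76M7 on chromosome 6, apart from the other CYP76M genes, and that name was not checked against a sequence.

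**Figure D2:**
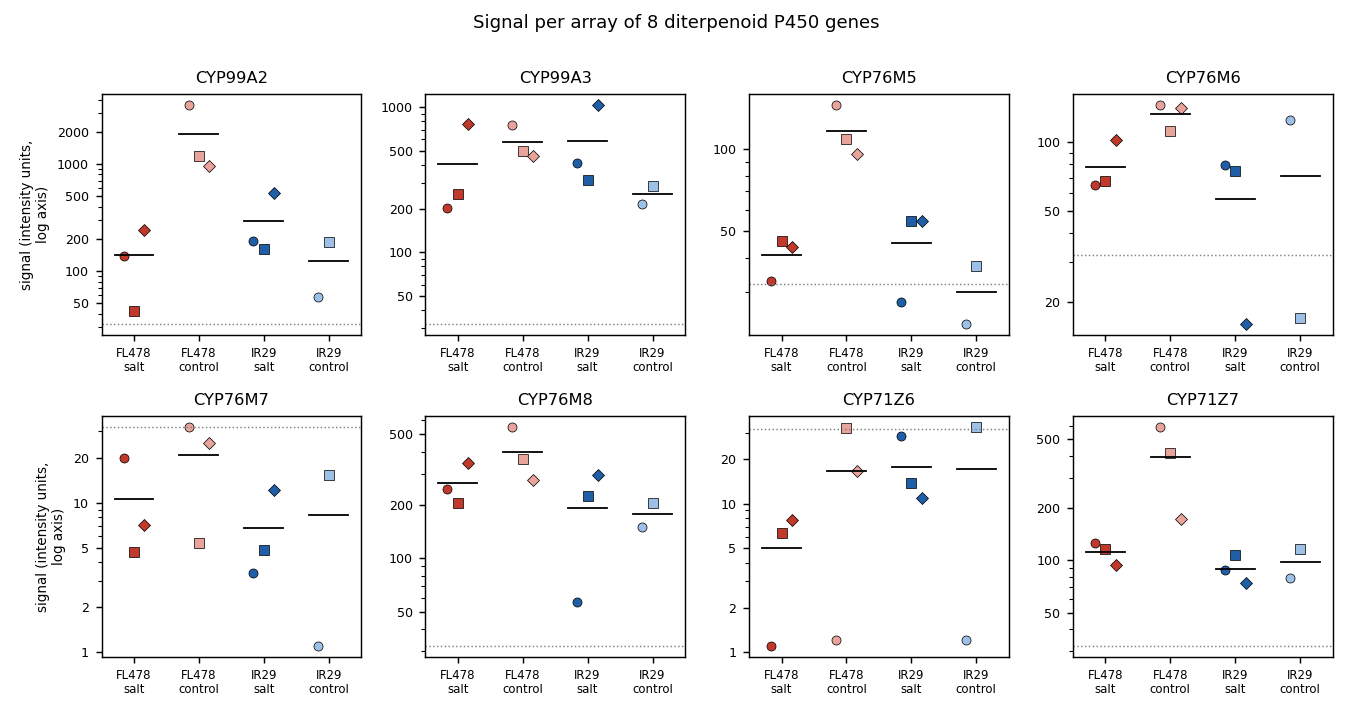
Signal of each diterpenoid P450 gene (intensity units, log axis, scale set per gene) on every array, by group, with circles, squares and diamonds for replicates 1, 2 and 3, a line at the group mean and a dotted line at 32 units. In CYP99A2, CYP76M5 and CYP71Z7 all control FL478 arrays lie above all salt FL478 arrays.

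Control FL478 replicate 1 held the highest signal of 6 of the 8 diterpenoid genes. Without that array the FL478 change was -2.85 for CYP99A2, -1.09 for CYP71Z7, -0.88 for CYP76M5, -0.53 for CYP76M6, -0.45 for CYP99A3, -0.26 for CYP76M8 and -0.14 for CYP76M7, and CYP71Z6 stood at -0.60. All 8 genes thus remained on the lower side.

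The allene oxide synthases of family CYP74 convert fatty acid hydroperoxides to the precursor of jasmonate. All 4 were lower under salt in FL478, with a median change of -1.19, and 1 of them was called. CYP74A3 had 80.5, 57.5 and 106.2 units in salt FL478, against 269.5, 267.6 and 345.4 units in control FL478, or 81.4 ± 24.4 and 294 ± 44.4 units (SD, n = 3 each). In IR29 it had 186.5, 115.1 and 175.3 units under salt, against 183.3 and 188.5 units in the control. Every FL478 salt array was below every other array of the study, and salt and control overlapped in IR29. CYP74A3 fell by 1.54 ± 0.21 (SE) in FL478 (adjusted p = 0.0694, limma) and stood at -0.21 ± 0.24 in IR29 (adjusted p = 0.978). Averaged over both genotypes CYP74A3 fell by 0.87 ± 0.16 (adjusted p = 0.0795), the 1 P450 call of that comparison, where 0.355% of all probe sets were called lower and 0.192% higher, and 8 P450 genes (27.6%) had an unadjusted p under 0.05 against 10.3% of all probe sets. This averaged call was kept without salt replicate 3 of FL478 and lost without each of the other 10 arrays (adjusted p from 0.111 to 0.230), and its adjusted p was 0.670 with the GAPDH ratio as a covariate. With the GAPDH ratio as a covariate the FL478 change of CYP74A3 was -1.40 and its adjusted p 0.442, but that ratio was higher on all salt than on all control arrays of each genotype. Leaving out each array in turn gave changes from -1.69 to -1.38 with adjusted p from 0.0808 to 0.220, and the call was lost without 8 of the 11 arrays, the exceptions being salt replicate 3 of FL478 and salt replicates 2 and 3 of IR29.

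CYP74A2 had 53.7, 14.1 and 30.4 units in salt FL478, against 497.2, 90.5 and 255.5 units in control FL478. It had 17.3, 32 and 105.7 units in salt IR29, against 111.8 and 42.6 units in control IR29. The FL478 groups were apart although the control arrays differed widely among themselves, and the change was -2.08 ± 0.55 (adjusted p = 0.258, limma), or -1.58 without control replicate 1. CYP74A4, the neighbour of CYP74A3, had 1255, 926.6 and 2505 units in salt FL478, against 2077, 1990 and 4130 units in control FL478. Its replicate 3 was the highest array in each FL478 group and the groups overlapped, with a change of -0.83 ± 0.38 (adjusted p = 0.570). CYP74A1 overlapped between salt and control in both genotypes, with -0.40 ± 0.41 in FL478 (adjusted p = 0.842) and 0.28 ± 0.45 in IR29 (adjusted p = 0.997).

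Gibberellin synthesis from ent-kaurene uses CYP701A6, an ent-kaurene oxidase, and CYP88A5, an ent-kaurenoic acid oxidase, and CYP714D1 inactivates gibberellins. None of the 7 genes of families CYP701, CYP88 and CYP714 was called for salt in either genotype. CYP714D1 had 773.6, 1042 and 1423 units in salt FL478, against 2035, 1684 and 2271 units in control FL478. It had 1425, 1351 and 2167 units in salt IR29, against 2012 and 1673 units in control IR29. The FL478 groups were apart and the IR29 groups overlapped, with changes of -0.90 ± 0.26 (adjusted p = 0.303, limma) and -0.18 ± 0.29 (adjusted p = 0.995).

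CYP701A8, which in rice acts on diterpenes of defence rather than on the gibberellin route, had 41.7, 28.9 and 70.4 units in salt FL478, against 555.8, 222.1 and 196 units in control FL478. It had 103.2, 142.9 and 535.8 units in salt IR29, against 47.2 and 171.1 units in control IR29. The FL478 groups did not overlap and the IR29 groups did, with IR29 salt replicate 3 far above the other IR29 arrays. The change was -2.07 ± 0.58 in FL478 (adjusted p = 0.293, limma), or -1.64 without control replicate 1, and 0.91 ± 0.64 in IR29 (adjusted p = 0.935), or 0.28 without salt replicate 3 and 0.23 without control replicate 1.

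The transcripts of the kaurene-side enzymes differed less. CYP88A5 had 149.3, 160.1 and 71.2 units in salt FL478, against 161.9, 248.5 and 140.2 units in control FL478, and 151.1, 95.8 and 136.3 units in salt IR29, against 160.4 and 166.4 units in control IR29. The IR29 salt arrays were all below the control arrays, by a margin that gave a change of -0.31 ± 0.31 (adjusted p = 0.968, limma). In FL478 the groups overlapped, with a change in the same direction of -0.46 ± 0.27 (adjusted p = 0.683, limma). The probe set of CYP701A6 carries the synonym CYP701A19 as well, the name of the neighbouring gene, and is written CYP701A6/CYP701A19. Its salt changes were 0.27 ± 0.26 in FL478 and -0.22 ± 0.29 in IR29. CYP714C1 and CYP714C2, for which no role is given here, stood at 0.08 ± 0.24 and 0.40 ± 0.28 in FL478 and at 0.20 ± 0.27 and 0.48 ± 0.32 in IR29, none of them called. The brighter probe set of CYP714C2, used here, is of a type that can bind transcripts of related genes. The second, dimmer probe set of CYP714C1 had 157.4, 217.3 and 203.2 units in salt FL478, against 230.9, 217.9 and 255.2 units in control FL478. These arrays did not overlap, and the direction was opposite to that of the brighter probe set. Its changes were -0.25 ± 0.28 in FL478 (adjusted p = 0.860, limma) and 0.49 ± 0.32 in IR29 (adjusted p = 0.916). The second, dimmer probe set of CYP714C2 had 127.2, 96 and 119.9 units in salt FL478, against 85.3, 76.1 and 90.7 units in control FL478, and 111.3, 141.6 and 159.1 units in salt IR29, against 101.5 and 86 units in control IR29. Its salt arrays lay above the control arrays in both genotypes, with an averaged change of 0.38 ± 0.12 (adjusted p = 0.305, limma).

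**Figure D3:**
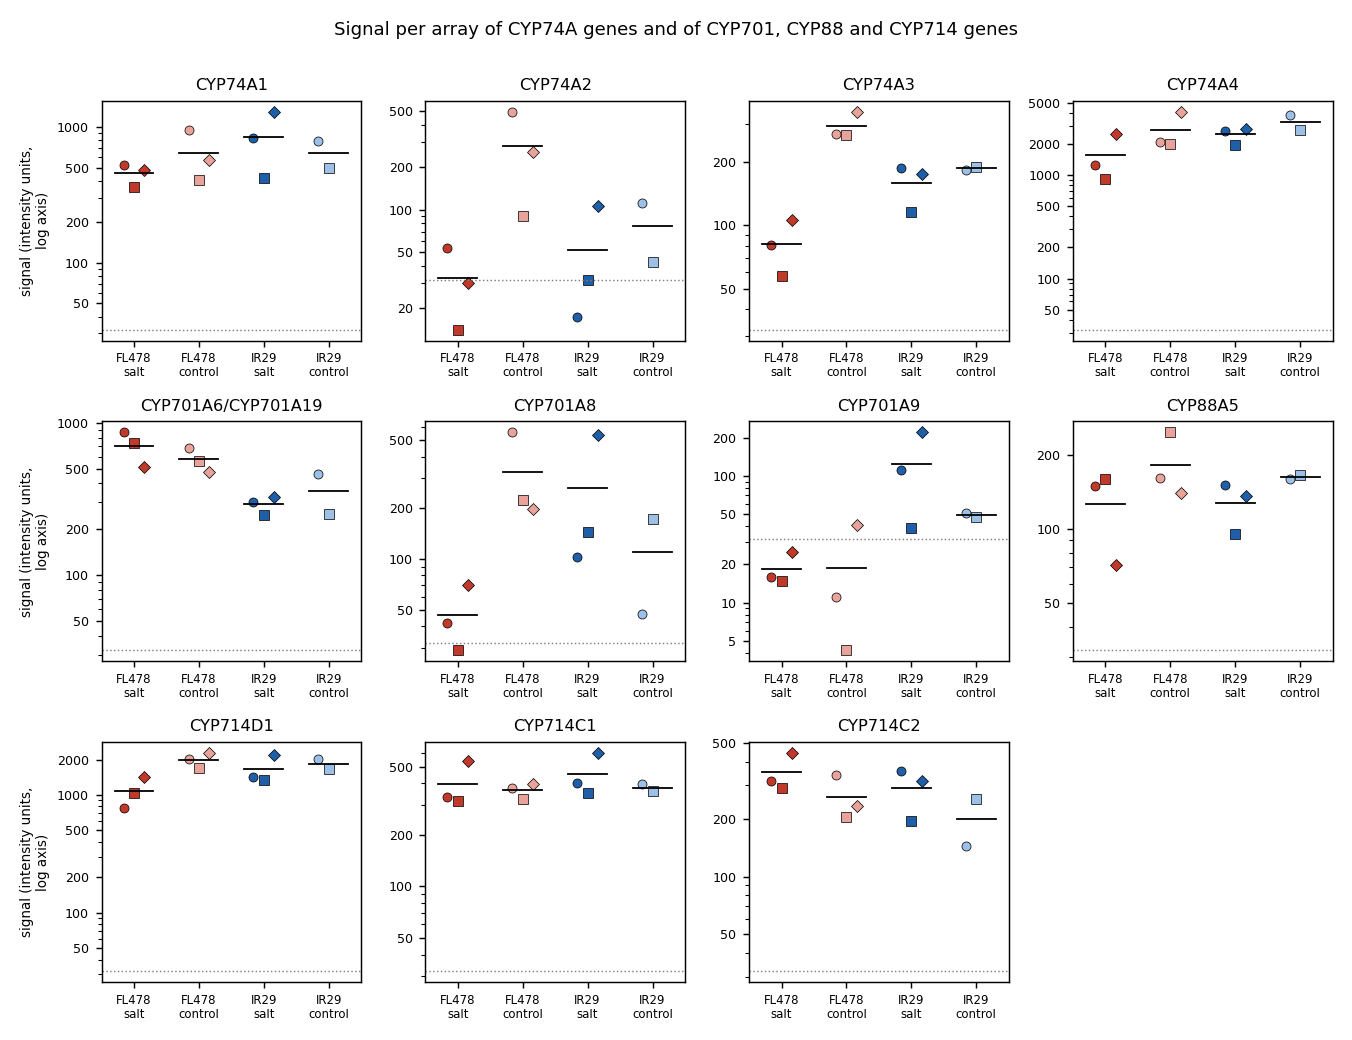
Signal of the CYP74A genes (top row) and of the CYP701, CYP88 and CYP714 genes (lower rows) on every array (intensity units, log axis, scale set per gene), by group, with circles, squares and diamonds for replicates 1, 2 and 3, a line at the group mean and a dotted line at 32 units. CYP74A3 is lowest on the 3 salt FL478 arrays (57.5 to 106.2 units), and all FL478 arrays of CYP701A6/CYP701A19 lie above all its IR29 arrays.

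Of the brassinosteroid genes, CYP85A1, CYP90A4 and CYP724B1 take part in synthesis, and CYP734A4 and CYP734A6 inactivate the hormone. CYP85A1, the C-6 oxidase, was the one P450 gene whose brightest probe set had salt arrays that were above the control arrays in both genotypes. It had 927.5, 1362 and 910.4 units in salt FL478, against 839.8, 777.3 and 618.6 units in control FL478. It had 1197, 1100 and 1040 units in salt IR29, against 773.2 and 1017 units in control IR29. The margins were small, with changes of 0.49 ± 0.20 in FL478 (adjusted p = 0.517, limma), 0.31 ± 0.23 in IR29 (adjusted p = 0.937) and 0.40 ± 0.15 averaged over both (adjusted p = 0.393). CYP90A4 had 226.3, 299.3 and 342.3 units in salt FL478, against 206.2, 298.3 and 354.3 units in control FL478, and 324.1, 274.9 and 256.7 units in salt IR29, against 344.4 and 363.6 units in control IR29. The salt arrays of IR29 were below its control arrays, at -0.29 ± 0.24 (adjusted p = 0.954). CYP724B1 spanned 707.5 to 946.9 units over all 11 arrays, from a probe set of a type that can bind transcripts of related genes. CYP734A6 spanned 254.4 to 336.6 units. CYP734A4 spanned 198.5 to 883.9 units, and its salt changes were 0.09 ± 0.34 in FL478 and 0.32 ± 0.38 in IR29.

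The abscisic acid hydroxylases CYP707A5 and CYP707A6, which start the breakdown of the hormone, stood slightly higher on average under salt in both genotypes, and neither was called. CYP707A5 had 3265, 1995 and 2356 units in salt FL478, against 2514, 1956 and 1613 units in control FL478. It had 2066, 1796 and 2638 units in salt IR29, against 1969 and 1313 units in control IR29. Salt and control overlapped in both genotypes, with changes of 0.31 ± 0.26 (adjusted p = 0.790, limma) and 0.40 ± 0.29 (adjusted p = 0.935). They were 0.12 in FL478 without its salt replicate 1 and 0.12 in IR29 without its control replicate 2. CYP707A6 had 167.8, 168.9 and 158.5 units in salt FL478, against 170, 62.1 and 119.7 units in control FL478. The spread lay among the control arrays, and the change was 0.47 ± 0.25 (adjusted p = 0.638), or 0.17 without control replicate 2. The probe set of CYP707A6 is also of a type that can bind transcripts of related genes.

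The remaining genes were CYP71P1, the tryptamine hydroxylase of serotonin synthesis, CYP87A3, and CYP703A3, a fatty acid hydroxylase of the pollen wall. CYP87A3 had 205.8, 324.2 and 143.5 units in salt IR29, against 396.9 and 326.2 units in control IR29. These arrays did not overlap, by a margin of a few units, and the change was -0.67 ± 0.30 (adjusted p = 0.810, limma), or -0.43 without salt replicate 3. In FL478 CYP87A3 had 187, 200.4 and 234.3 units under salt, against 324.9, 271.1 and 183.5 units in the control, which overlapped. CYP71P1 spanned 1045 to 2498 units with changes of -0.44 ± 0.30 in FL478 and 0.15 ± 0.34 in IR29, and its second probe set was at most 14.6 units on any array. CYP703A3 was under 32 units on all 11 arrays, 17.9 units being its highest value.

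**Figure D4:**
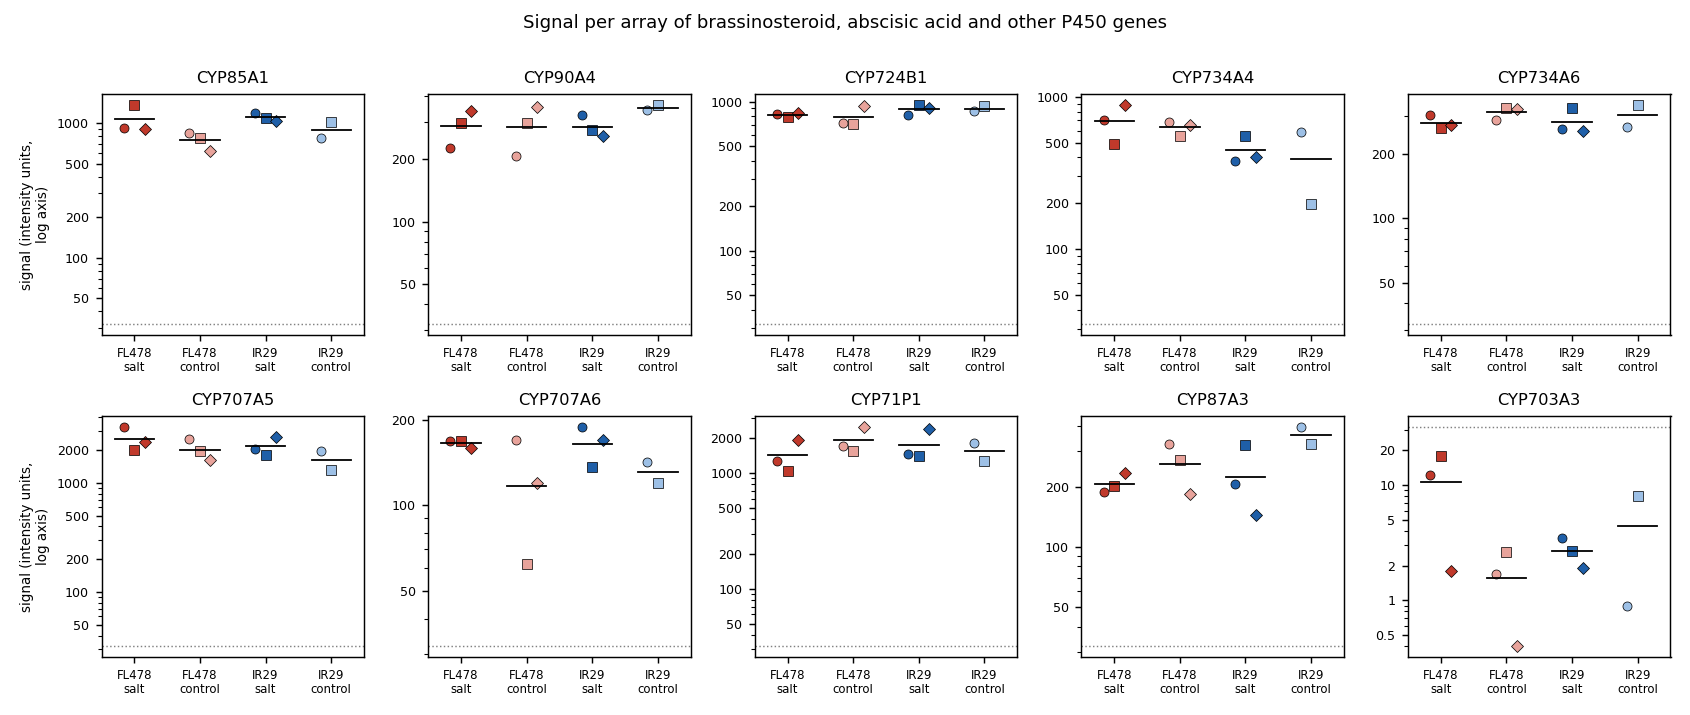
Signal of the brassinosteroid genes (top row) and of the CYP707A, CYP71P1, CYP87A3 and CYP703A3 genes (lower row) on every array (intensity units, log axis, scale set per gene), by group, with circles, squares and diamonds for replicates 1, 2 and 3, a line at the group mean and a dotted line at 32 units. CYP724B1 stays between 707.5 and 946.9 units, and CYP703A3 lies under 32 units on every array.

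Whether FL478 and IR29 responded differently was tested as the FL478 change minus the IR29 change. No P450 gene was called, as was no other probe set (0%). At an unadjusted p under 0.05 there were 5 P450 genes (17.2%), against 4.53% of all probe sets, and all 5 had the more negative response in FL478. The difference was -4.47 ± 0.97 for CYP99A2, -2.98 ± 0.86 for CYP701A8, -1.34 ± 0.52 for CYP71Z7, -1.33 ± 0.32 for CYP74A3 and -1.32 ± 0.31 for CYP76M5, with adjusted p from 0.951 to 1.00 in limma. The fall of CYP74A3 in FL478 is therefore not shown to differ from its response in IR29.

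The genotypes themselves were compared over both treatments, and 2 P450 genes were higher in FL478 and none lower, against 1.71% of all probe sets called higher and 1.63% called lower. An unadjusted p under 0.05 was reached by 7 P450 genes (24.1%), against 13.0% of all probe sets. CYP701A6/CYP701A19 had 866.5, 734.9 and 516.4 units in salt FL478 and 686.2, 563.3 and 476.7 units in control FL478, against 303.9, 247.1 and 325.7 units in salt IR29 and 462.4 and 253.6 units in control IR29. All FL478 arrays lay above all IR29 arrays. The difference was 0.92 ± 0.19 (adjusted p = 0.0412, limma), and 0.72 with an adjusted p of 0.187 without control replicate 2 of IR29. The second probe set of this gene gave 0.46 ± 0.16 (adjusted p = 0.224), and both are of a type that can bind transcripts of related genes. CYP76M5 was higher in FL478 by 0.59 ± 0.15 (adjusted p = 0.0986), with salt means of 40.9 units in FL478 and 45.5 units in IR29 and control means of 116 units in FL478 and 30.2 units in IR29. The CYP76M5 call was lost without each array except salt replicate 2 of IR29 (adjusted p from 0.0938 to 0.255 over the 11 fits), and also with the GAPDH ratio as a covariate (0.205), with a floor of 32 (0.118) and with an intensity trend and robust variance (0.197).

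The neighbouring CYP701A9, a homologue of the kaurene oxidases, stood the other way. It had 15.8, 14.9 and 24.9 units in salt FL478 and 11.1, 4.2 and 41 units in control FL478, against 110.3, 38.8 and 220.5 units in salt IR29 and 51.2 and 47.4 units in control IR29. It was under 32 units on 5 FL478 arrays and above it on every IR29 array, with a difference of -1.09 ± 0.31 (adjusted p = 0.127). Array probes were designed on reference transcripts, and sequence differences between the genotypes at the probes were not tested. CYP71Z7 differed by 0.92 ± 0.26 (adjusted p = 0.130), CYP734A4 by 0.70 ± 0.26 (adjusted p = 0.267), CYP76M8 by 0.79 ± 0.33 (adjusted p = 0.351), CYP99A2 by 1.30 ± 0.49 (adjusted p = 0.277) and CYP74A4 by -0.55 ± 0.29 (adjusted p = 0.480). None of these 5 differences was called. CYP99A2 averaged 1899 units in control FL478 and 123.3 in control IR29, but 141.8 in salt FL478 and 295.7 in salt IR29. CYP71Z7 averaged 394.1 units in control FL478 and 97.8 in control IR29, and 112 in salt FL478 and 89.7 in salt IR29. On group means CYP71Z7, CYP734A4, CYP76M8 and CYP74A4 kept their direction under both treatments, and CYP99A2 did not.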

How the data were processed

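The authors deposited linear signal intensities that GCOS computed from Affymetrix rice arrays, scaled to a common trimmed mean; no GCOS version is given in the sources used here. The study's own test was SAM on RMA values, which were not used here. Of 57381 probe sets, 123 controls were left out; the gene table gives 1 gene to 22436 probe sets, several to 95 and none to 34727. An offset of 32 was added, log2 was taken, and the 4 groups were fitted together in limma 3.58.1 (R 4.3.3; 7 residual and 3 prior degrees of freedom), with Benjamini-Hochberg adjustment and calls at an adjusted p under 0.10. The number of arrays limits precision. The fit was tested on simulated data. Tables and plots were made with Python 3.11.15, pandas 2.3.3, numpy 2.4.6 and matplotlib 3.10.9.

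The P450 genes and the marker lists were chosen with earlier results of these data known. Genes were picked as up to 8 called genes per direction and comparison, or by the smallest unadjusted p up to 3 genes. These genes and those of the hormone and diterpenoid families are given with values per array, a level or a change. CYP701A8 was first counted in the diterpenoid group and was moved to family 701, as in the fixed family list, after that summary had been seen. Of 2 pairs of GAPDH control probe sets, the dimmer was used as a covariate first. The brighter took its place once the ratios and counts had been seen, and both are reported. The alternatives were an offset of 64, a floor of 32, quantile normalization, only probe sets brighter than the median, a variance trend with robust estimation, a replicate block, an adjusted p under 0.05, the GAPDH covariates, any probe set of a gene, arrays of 1 genotype and each array left out.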

Additional observations from a re-analysis of the deposited data

How the results depend on the processing

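The count of P450 genes called for salt in FL478 (1) became 0 at an adjusted p under 0.05, with either GAPDH ratio as covariate and with FL478 arrays only, 2 with an intensity trend and robust variance (CYP74A3 and CYP99A2) and 3 where dimmer probe sets than the median were left out (CYP74A3, CYP76M5 and CYP99A2), of which CYP76M5 entered only through its high control FL478 arrays and so gains no support. Leaving out each array gave 0 to 1. Averaged over genotypes the count (1) became 0 at an adjusted p under 0.05 and with the brighter GAPDH pair as covariate, with 0 to 1 over arrays left out: CYP74A3 without salt replicate 3 of FL478, CYP71Z7 without control replicate 3 of FL478, and none otherwise. For FL478 over IR29 the count (2) became 1 at an adjusted p under 0.05 and with a floor of 32, 0 with the dimmer GAPDH pair, 3 where dimmer probe sets than the median were left out (CYP71Z7 gained), 3 with an intensity trend and robust variance (CYP701A9 and CYP71Z7 gained, CYP76M5 lost) and 4 with the replicate block (CYP701A6/CYP701A19, CYP701A9, CYP71Z7 and CYP74A4), with 0 to 3 over arrays left out, the 0 being without control replicate 2 of IR29. With the brighter GAPDH pair it was 2, CYP701A9 standing in place of CYP76M5. Where dimmer probe sets were left out, CYP76M5 again entered only through its high control FL478 arrays, so its call there gains no support. For salt in IR29 and for the difference of the responses the count was 0 under every alternative run.

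The GAPDH covariate depends on the pair chosen. The ratio of the brighter pair was higher on all salt than on all control arrays of each genotype. Salt calls lost with that pair therefore cannot be told apart from an effect of the treatment on the ratio. Over all probe sets, the brighter pair left 0 calls for salt in FL478, 0 in IR29, 0 averaged and 1672 between genotypes, and the dimmer pair 6, 1, 156 and 1125, against 97, 3, 313 and 1912 without a covariate. The dimmer pair was run first, and the change was made after its ratios and counts had been seen. It averaged 1.34 ± 0.95 in salt FL478 and 1.66 ± 0.18 in control FL478 (SD, n = 3 each), and 2.45 ± 1.70 in salt IR29 (SD, n = 3) and 2.16 ± 0.81 in control IR29 (SD, n = 2). With it CYP74A3 stood at -1.49 in FL478 with an adjusted p of 0.109 in limma, and CYP701A6/CYP701A19 at 0.91 between genotypes with 0.123.

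Over 30 changes picked for calls or the smallest p, 523 values kept their direction and side of the threshold, 39 kept direction but lost the call, 14 gained it and none turned. Leaving out an array of the other genotype cannot alter a change within a genotype, so part of these kept directions was fixed in advance. Changes outside this choice did turn in both genotypes when an array was left out, and these are examples. In IR29 without its control replicate 2, CYP734A4 went from 0.324 to -0.385 and CYP71Z7 from -0.0868 to 0.127. In IR29 without its salt replicate 3, CYP76M6 went from -0.0863 to 0.308. In FL478 without its control replicate 1, CYP90A4 went from 0.0252 to -0.17 and CYP701A9 from 0.0545 to -0.0303. Replicate numbers are shared across groups, but deviations of arrays with the same number correlated at only -0.0717 to 0.19, so the numbers are not taken to pair the samples. With a floor of 32 CYP703A3 has no value, since all its arrays lie at the floor. Signals under 32 units limit CYP703A3, CYP76M7 and CYP71Z6 most. They also occurred on 5 arrays of CYP701A9, 3 of CYP74A2, 2 of CYP76M5, 2 of CYP76M6 and 1 of CYP701A8. The cause of the changes in counts was not tested.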
